A study of Mus musculus with 46 samples.

Results

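The replication-dependent histone genes supply the histone proteins that package newly copied DNA. In the mouse count tables analysed here they are the 67 protein-coding genes whose symbol in the GENCODE M21 annotation of GRCm38 starts with Hist1h, Hist2h, Hist3h or Hist4h, out of 56854 genes listed in both tables. They comprise 6 linker histone H1 genes, 18 H2A genes, 18 H2B genes, 12 H3 genes and 13 H4 genes. Membership was decided by gene name alone, with no measured value in the rule. The set itself was chosen with earlier results of these data known. They lie in 4 clusters. The Hist1 cluster holds 54 of them on chromosome 13 (21715763 to 23934851), the Hist2 cluster 10 on chromosome 3 (96219865 to 96270132), the Hist3 cluster 2 on chromosome 11 (58948920 to 58956830), and Hist4h4 stands alone on chromosome 6 (136801553 to 136804415).

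RNA sequencing was done on 46 mouse tumours, 1 library per animal, in mouse models of synovial sarcoma, a tumour caused by fusion of the SS18 gene to an SSX gene. The comparisons ask what loss of a subunit of the BAF family of chromatin remodelling complexes changes in these tumours. The hSS2 background expresses human SS18::SSX2 and holds 13 control tumours, 8 tumours with floxed Pbrm1, 8 with floxed Arid1a and 8 with floxed Arid1b. The hSS1 background expresses human SS18::SSX1 from Rosa26 and holds 5 control tumours and 4 with floxed Pbrm1. Canonical BAF holds either Arid1a or Arid1b, while Pbrm1 belongs to PBAF. All 6 groups carry a fusion allele that Cre switches on, so the control tumours are tumours too, with the 3 subunit genes not floxed. Per the study's methods Cre was given as TATCre protein injected into the limb at 8 days of age, in mice of both sexes and of mixed strain, and the floxed groups were homozygous. Cre therefore acted on whichever cells took it up, recombination need not be complete, and a library holds the whole piece of tumour. In such bulk RNA, fewer cells of a type and less RNA per cell cannot be told apart.

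Most messenger RNAs end in a poly(A) tail, but those of replication-dependent histone genes end just after a conserved stem-loop, which the stem-loop binding protein Slbp holds during processing, translation and decay. Their genes have almost no introns, are read in S phase under Npat, a cyclin E-Cdk2 substrate, and fall silent when DNA synthesis stops. Many are near-identical copies that make the same protein. Because these libraries were made from total RNA by removing ribosomal RNA rather than by capturing poly(A) tails, transcripts without a tail are counted.

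The stem-loop was looked for because it is what separates these transcripts from other messenger RNAs. The search took the first 100 bases after the annotated stop codon and required 16 bases made of a 6-pair stem that starts with GG, perfectly paired, and a 4-base loop that starts with TT. Of the 67 members, 52 have at least 16 annotated bases after the stop codon, and 44 of these (84.6%) held such a sequence, 22 to 59 bases after the stop codon with a median of 32. Among 20914 other protein-coding genes 8 held one (0.0383%). The 8 members searched without a match were Hist1h1a, Hist1h2bc, Hist1h2bq, Hist1h2br, Hist1h3g, Hist1h4a, Hist2h2be and Hist2h3b, which says only that these letters are not in that window of the annotated transcript. The 44 members share 6 distinct sequences, and 26 of them carry the one shown for Hist1h1c. The 6 are shown once each, for a member of H1, H4, H3, H2A and, for the rarer forms, H4 again. Letters are DNA of GRCm38 read in the direction of the gene, and capitals mark the stem.
Hist1h1c, chr13:23739512-23739527, plus strand: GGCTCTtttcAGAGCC
Hist1h4d, chr13:23581950-23581965, plus strand: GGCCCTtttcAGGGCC
Hist1h3f, chr13:23544932-23544947, plus strand: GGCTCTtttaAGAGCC
Hist2h4, chr3:96262939-96262954, minus strand: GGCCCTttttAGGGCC
Hist1h4j, chr13:21735437-21735452, plus strand: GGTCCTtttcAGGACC
Hist2h2ac, chr3:96220418-96220433, minus strand: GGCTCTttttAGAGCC
The form shown for Hist1h4d is carried by 7 members, that of Hist1h3f by 6, that of Hist2h4 by 2, that of Hist1h4j by 2 and that of Hist2h2ac by 1. The forms differ in which bases pair in the stem and in the last loop base.

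Promoters were read from RefSeq (GRCm38.p6) as 250 bases before to 50 after the annotated start, and 61 of the 67 members had one. Each was searched on both strands for the octamer ATTTGCAT, the recognition sequence of the POU factor Oct-1 that is long known from H2B promoters, for the TATA box TATAAA and for the CCAAT box CCAAT. Matches of different motifs were counted separately. The octamer was found in 7 of 16 H2B promoters (43.8%) and 7 of 17 H2A promoters (41.2%). It was in 0 of 6 H1, 0 of 10 H3 and 0 of 12 H4 promoters, and in 1.7% of 32789 other promoters. In divergent pairs of an H2A and an H2B gene, read outward, the starts lie 176 to 306 bases apart. Their searched stretches overlap, so the same match can be counted for both genes. Both promoters held the octamer in the pairs Hist1h2ae and Hist1h2bg, Hist1h2ah and Hist1h2bk, and Hist1h2aa and Hist1h2ba. The other pairs with both promoters searched held it in neither. The H2A and H2B counts are therefore not separate observations. The TATA box was found in 35 of 61 members (57.4%) and in 13.5% of the other promoters. The CCAAT box was found in 52 of 61 members (85.2%) and in 37.3% of the others, and it was in all promoters of H1, H2A, H2B and H3 but in 3 of 12 of H4. The first stretch below shows the 3 motifs together in an H2B promoter, the second the octamer in the H2B gene Hist2h2bb, the highest of its family per kilobase, and the third the promoter of Hist1h4d, the highest member by counts. Capitals mark the motif letters on either strand.
Hist1h2bb, chr13:23746614-23746733, plus strand: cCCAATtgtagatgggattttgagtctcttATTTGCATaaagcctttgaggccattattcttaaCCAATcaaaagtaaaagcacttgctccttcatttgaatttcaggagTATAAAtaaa
Hist2h2bb, chr3:96269580-96269699, plus strand: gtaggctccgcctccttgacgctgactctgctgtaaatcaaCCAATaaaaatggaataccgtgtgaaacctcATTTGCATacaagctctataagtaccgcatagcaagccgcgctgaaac
Hist1h4d, chr13:23581448-23581567, plus strand: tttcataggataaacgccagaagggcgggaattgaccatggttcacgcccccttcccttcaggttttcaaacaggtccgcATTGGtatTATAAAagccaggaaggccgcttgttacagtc
A match to letters is a description of the sequence, not evidence of binding.

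Sequence also decides how well a read can be placed. The 13 H4 genes encode a single protein of 103 residues, and the 12 H3 genes encode 3 proteins, of which 7 genes share 1. The 18 H2A genes encode 9 proteins, the 18 H2B genes 12 and the 6 H1 genes 6. At the level of DNA the H4 coding sequences still differ, with a median identity of 93.9% between pairs (85.3% to 100%). Reads were paired and 150 bases long per the study's methods. Each annotated transcript was divided into all its windows of 150 bases, and each window was looked for in every other annotated gene. A window stands for 1 read, so what the other read of a pair adds to the placing is left out. Of the 67 members 14 had every window in no other gene, and 46 had at least 50% of windows in no other gene. The other 21 members shared most of their windows, 10 of them H2A genes, 5 H3, 3 H2B and 3 H4. How the deposited counts treated reads that fit several genes was not stated, so a level of these 21 members can be split or lost between copies. The clearest pairs can be seen in their promoters. The printed stretches of Hist1h4m and Hist1h4n share a run of 119 of their 120 bases.
Hist1h4m, chr13:21811626-21811745, plus strand: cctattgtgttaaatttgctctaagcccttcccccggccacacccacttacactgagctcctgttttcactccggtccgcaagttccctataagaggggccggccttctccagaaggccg
Hist1h4n, chr13:21832198-21832317, minus strand: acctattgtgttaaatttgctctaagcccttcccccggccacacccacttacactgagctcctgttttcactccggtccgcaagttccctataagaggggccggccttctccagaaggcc
Of Hist1h4m, 14.2% of transcript windows were in no other gene, and of Hist1h4n 22.8%.

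Libraries held 10.1 to 21.3 M counts, and the 67 members together took 6616 to 107760 of them, 0.0583% to 0.615% of a library. Levels are given as CPM, counts scaled to a common library total with factors from the trimmed mean of M-values (TMM), and differences between groups as log2 fold changes with their standard error (SE) from the edgeR quasi-likelihood test, with p-values adjusted over all genes by Benjamini-Hochberg. A gene is called at an adjusted p under 0.05. In the hSS2 comparisons 62 members passed the filter on low counts. The 5 that did not were Hist1h2aa, Hist1h2ba, Hist1h2bq, Hist2h2aa1 and Hist2h3c1. Hist1h2aa and Hist1h2ba, known from testis, had 1 and 44 counts over all 46 libraries. Hist2h3c1 had 0 counts in every library, but each of its 150-base windows is also in another gene, so that 0 sets no limit on its level. In hSS1 the filter also left out Hist1h2br, so 61 members were tested. The targeted genes were lower in the floxed groups. Pbrm1 stood at 252 ± 36.1 CPM (SD, n = 13) in hSS2 control and 104 ± 15.1 CPM (SD, n = 8) in Pbrm1-fl tumours, and Arid1a fell from 487 ± 87.3 to 253 ± 13.8 CPM. Arid1b stood at 352 ± 115 and 202 ± 89.0 CPM (adjusted p 0.145), and Pbrm1 in hSS1 at 315 ± 38.8 and 187 ± 63.3 CPM (adjusted p 0.193), so these 2 losses did not pass the threshold. The library labelled hSS2 control replicate 9 had 239 CPM of Arid1a, as low as the Arid1a-fl tumours, and it was kept in its labelled group. Markers of synovial sarcoma had a mean log2 CPM over 4 genes of 1.9999 to 6.38 across the tumours. Such a mean does not show that each of the 4 was present in each tumour. Markers of skeletal muscle ranged from -2.06 to 11.4 in mean log2 CPM over 10 genes, so the pieces differed in how much muscle they held.

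The histone genes as a set varied more within groups than between most of them. The summed level of the 67 members was 578, 1264 and 3068 CPM in the lowest, median and highest hSS2 control tumour. In Pbrm1-fl tumours the same values were 649, 1626 and 4178 CPM, and in Arid1a-fl tumours 955, 1864 and 6306 CPM. In Arid1b-fl tumours they were 680, 1518 and 2543 CPM. The ranges of the 4 hSS2 groups overlapped. The 2 tumours that stood highest were Arid1a-fl replicate 1 (6306 CPM, with the next Arid1a-fl tumour at 3353) and Pbrm1-fl replicate 8 (4178 CPM, with the next at 2080). The 5 hSS1 control tumours had 3538, 2039, 3583, 4493 and 4839 CPM, and the 4 hSS1 Pbrm1-fl tumours 1329, 2032, 2515 and 2108 CPM. In hSS1 the groups overlapped only through control replicate 2, the sole control tumour below the highest floxed one.

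Expressed as a ratio of group means, the summed level was 1.21 times that of control in hSS2 Pbrm1-fl (log2 0.27), 1.61 times in Arid1a-fl (log2 0.69), 1.09 times in Arid1b-fl (log2 0.12) and 0.540 times in hSS1 Pbrm1-fl (log2 -0.89). The pooled SD of the log2 level within groups was 0.810, 0.841, 0.785 and 0.449 for these comparisons, so the hSS2 ratios are within 1 SD and the hSS1 ratio exceeds it. Of the floxed tumours, 5 of 8 Pbrm1-fl, 6 of 8 Arid1a-fl, 4 of 8 Arid1b-fl and 0 of 4 hSS1 Pbrm1-fl lay above the median of their controls. Without Pbrm1-fl replicate 8 the log2 ratio of that group was -0.031, and without Arid1a-fl replicate 1 that of Arid1a-fl was 0.31. The mouse numbers in the labels fall into ranges that go with the floxed gene, and control tumours are in several ranges. With controls taken only from the matching range the log2 ratios were 0.016, 0.93, 0.12 and -1.11. The 3 hSS1 control tumours in the range of the hSS1 Pbrm1-fl tumours had 3583, 4493 and 4839 CPM and lay above all 4 of them, and the 2 outside it had 3538 and 2039 CPM.

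**Figure D1:**
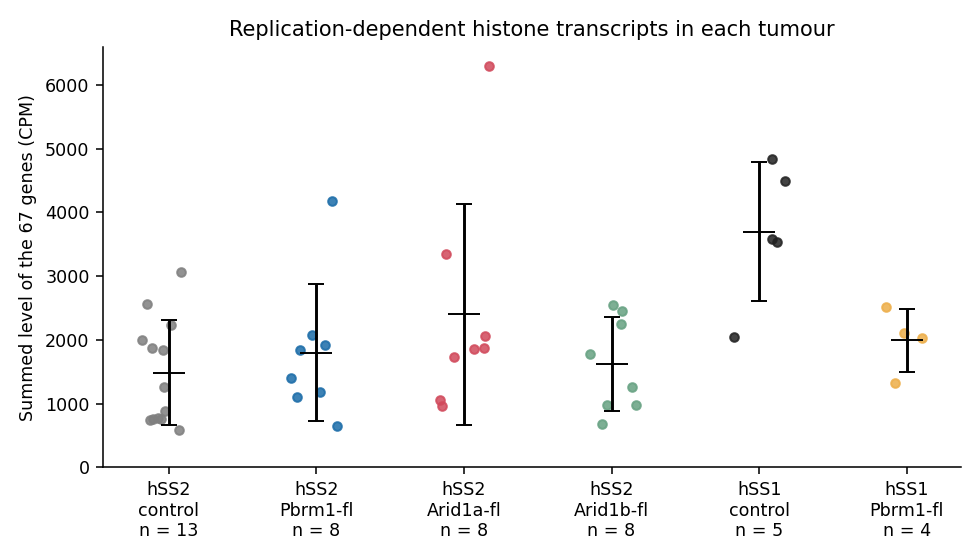
Summed level of the 67 histone genes (CPM, axis from 0) in each tumour of the 6 groups, 1 point per tumour, with the mean and SD of each group in black. The hSS2 tumours span 578 to 6306 CPM, and the ranges of their groups overlap. The 4 hSS1 Pbrm1-fl tumours (1329 to 2515 CPM) lie below 4 of the 5 hSS1 control tumours, and 2 of them lie above the lowest control (2039 CPM).

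Control tumours of hSS1 stood above those of hSS2, with a mean ± SD of 3698 ± 1087 CPM in 5 tumours beside 1487 ± 821 CPM in 13. The backgrounds were deposited as separate tables and have no shared control, so fusion, background and any difference between the tables cannot be told apart, and no test was made. The share of H3 in the summed level also differed, at 13.7% to 20.03% in the 37 hSS2 tumours and 19.9% to 22.5% in the 9 hSS1 tumours.

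The composition of the histone pool was steadier than its size. Over the 46 tumours H4 genes made up 28.2% ± 2.35 of the summed level (SD), H2B genes 22.9% ± 1.78, H1 genes 22.7% ± 3.51, H3 genes 17.7% ± 2.19 and H2A genes 8.54% ± 2.15. The 18 H2A genes gave the smallest share, and 10 of them are among those with most windows in another gene, whose part in that share was not tested. The Hist1 cluster gave 88.3% ± 1.75 of the sum, with group means of 87.9% to 88.9%. The share of H1 was highest in hSS2 control replicate 13, at 38.2%, and the share of H2A was lowest in the same tumour, at 3.65%.

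Linker histones of the H1 family bind the DNA between nucleosomes. Per kilobase of exon, the highest were Hist1h1c at 85.4 CPM per kb (chr13:23738808-23740367, plus strand), which also gives polyadenylated transcripts in non-dividing cells, and Hist1h1a at 73.0 CPM per kb (chr13:23763666-23764406, plus strand). Hist1h1c stood at 111 ± 30.4 CPM in hSS2 control (n = 13), 134 ± 43.9 in Pbrm1-fl, 147 ± 78.9 in Arid1a-fl, 137 ± 75.9 in Arid1b-fl (n = 8 each), 186 ± 47 in hSS1 control (n = 5) and 104 ± 33.6 in hSS1 Pbrm1-fl tumours (n = 4, SD throughout). Its groups overlapped in hSS2, and none of its fold changes was called. Hist1h1a was more variable, at 36.2 ± 29.6, 41.8 ± 33.7, 84.6 ± 73.1, 40.4 ± 22.5, 103 ± 33.7 and 41.9 ± 22.8 CPM in the same order, with log2 fold changes of 1.21 in Arid1a-fl (adjusted p 0.147) and -1.29 in hSS1 Pbrm1-fl (adjusted p 0.208). Hist1h1b, which in hSS1 did not overlap, had 142, 64.9, 127, 171 and 174 CPM in control and 27.5, 56.2, 58.1 and 52.5 CPM in Pbrm1-fl tumours (log2 fold change -1.47, adjusted p 0.121). Hist1h1t, known from testis, was detected at 5.04 ± 3.76 CPM in hSS2 control tumours.

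H2A and H2B form the dimers that flank the core of the nucleosome. Hist1h2ak (chr13:21753435-21753827, minus strand) was the member with the highest level per kilobase, 167 CPM per kb, followed within H2A by Hist1h2an at 60.3 CPM per kb (chr13:21786826-21787218, minus strand). Hist1h2ak stood at 47.6 ± 44.4, 51.8 ± 60.2, 87.9 ± 71.1 and 51.9 ± 29.1 CPM in the 4 hSS2 groups (control first, then floxed Pbrm1, Arid1a and Arid1b), and at 125 ± 64.1 and 61.6 ± 42.96 CPM in hSS1 control and Pbrm1-fl tumours. The SD was close to or above the mean in the first 3 groups. Hist1h2an stood at 18.3 ± 18.9, 20.01 ± 28.2, 34.7 ± 35.4, 20.4 ± 15.6, 38.5 ± 24.3 and 14.6 ± 14.1 CPM in the same order. Among H2B genes the highest per kilobase were Hist2h2bb at 114 CPM per kb (chr3:96269752-96270132, plus strand) and Hist1h2bn at 108 CPM per kb (chr13:21754123-21754503, plus strand). Hist2h2bb stood at 32.2 ± 21.4, 38.5 ± 25.7, 62.1 ± 50.7, 31.7 ± 15.96, 73.5 ± 27.5 and 38.9 ± 11.7 CPM, and Hist1h2bn at 31.9 ± 24.4, 33.6 ± 25.5, 46.5 ± 52.7, 33.2 ± 17.98, 78.6 ± 43.5 and 46.4 ± 23.0 CPM. All 4 genes were highest in hSS1 control, and none was called in a comparison. Levels per kilobase divide by annotated exon length, and these 4 genes have 0 annotated bases after the stop codon. The part of annotated length in the ranking per kilobase was not tested.

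Hist1h2ak and Hist1h2bn are read outward in opposite directions, with 296 bases between their starts. Of the members, 12 such divergent pairs of 1 H2A and 1 H2B gene were annotated, 176 to 306 bases apart. In 10 pairs both genes passed the filter, and their log2 levels over the 46 tumours correlated with Pearson r of 0.593 to 0.963 and a median of 0.892, against a median of 0.793 over the 246 other pairings of an H2A with an H2B gene. These are descriptions over tumours that share library and depth effects, and they carry no test. In 7 of the 12 pairs the H2B gene had the higher mean level, as in Hist1h2ac at 8.90 CPM beside Hist1h2bc at 83.3 CPM.

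H3 and H4 form the tetramer at the core of the nucleosome. Hist1h3f (chr13:23544052-23545312, plus strand) was the highest H3 gene at 84.1 CPM per kb, and Hist1h3c (chr13:23744973-23745602, minus strand) followed at 73.1 CPM per kb. Hist1h3f stood at 73.6 ± 44.4, 90.04 ± 60.6, 119.6 ± 90.8 and 77.1 ± 36.9 CPM in the 4 hSS2 groups, in that order, and at 228 ± 73.98 and 121 ± 31.5 CPM in hSS1 control and Pbrm1-fl tumours. Hist1h3c stood at 31.6 ± 26.3, 44.9 ± 39.8, 54.1 ± 50.9, 35.7 ± 22.6, 86.4 ± 28.7 and 49.6 ± 17.9 CPM. Both were lower in the hSS1 floxed group without being called. Of the H4 genes Hist1h4h (chr13:23531050-23531519, plus strand) reached 164 CPM per kb and Hist1h4f (chr13:23551258-23551648, minus strand) 132 CPM per kb. Hist1h4h stood at 56.2 ± 30.6, 78.2 ± 40.5, 86.7 ± 70.7, 61.4 ± 30.1, 137 ± 34.7 and 79.7 ± 20.4 CPM, and Hist1h4f at 37.2 ± 25.9, 47.8 ± 33.6, 61.97 ± 51.9, 42.3 ± 24.3, 92.2 ± 30.1 and 51.7 ± 12.3 CPM. By counts not divided by length the highest member was Hist1h4d, with 140 ± 60.6 CPM (SD, n = 46), or 6.98% of the CPM of all members.

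**Figure D2:**
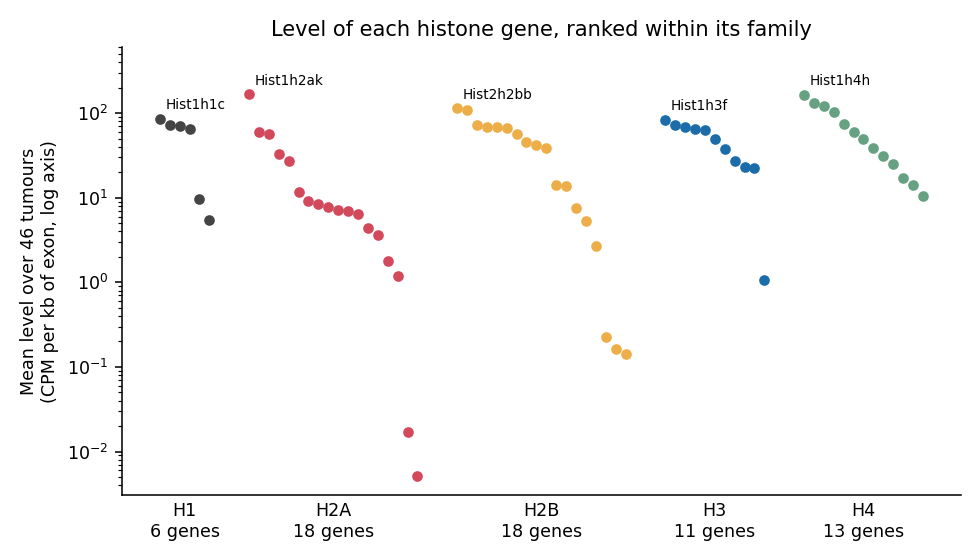
Mean level over the 46 tumours of each detected histone gene (CPM per kb of exon, logarithmic axis), ranked within its family, 1 point per gene. Each family holds genes of high and of low level, and the highest of the 5 families are led by Hist1h2ak at 167 and Hist1h4h at 164 CPM per kb. The ranks depend on the annotated exon length of each gene.

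In hSS2 Pbrm1-fl tumours 0 of 62 tested members were called, where 7.35% of all tested genes were. At an unadjusted p under 0.05, 1 member was higher, against 10.7% of all genes, and with DESeq2 0 members were called against 10.8% of all genes. The log2 fold change was above 0 for 55 of 62 members, with a median of 0.29 beside -0.0042 over all genes, and ranged from -0.24 in Hist1h1b to 0.66 in Hist4h4. The family medians lay between 0.13 in H1 and 0.34 in H2A. Members varied together over the 46 tumours, with a median r of 0.936 between a member and the sum of the others. Counts of members, in this and the other comparisons, are therefore not numbers of separate observations. The member at the unadjusted threshold, Hist1h2bc, stood at 65.4 ± 20.3 CPM in control and 89.4 ± 22.2 CPM in Pbrm1-fl tumours (log2 fold change 0.46, SE 0.18, adjusted p 0.122). It is among the members that also make polyadenylated transcripts. Set against the 4 controls from the matching mouse number range, the median of the members was -0.0029 with 31 of 62 above 0, and without Pbrm1-fl replicate 8 it was -0.039 with 27 above 0, so the shift toward higher values was seen in neither.

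In hSS2 Arid1a-fl tumours 3 of 62 members were called, all higher, a share of the members near the 3.17% called among all tested genes. The log2 fold change was above 0 for all 62 tested members, with a median of 0.76 against -0.04 over all genes, and ranged from 0.06 in Hist2h2be to 2.62 in Hist2h2aa2. At an unadjusted p under 0.05, 18 members were higher, against 10.2% of all genes. Without Arid1a-fl replicate 1 the median was 0.34, 56 of 62 members were above 0 and 5 were higher at an unadjusted p. Without control replicate 2 the unadjusted count was 35. The 18 were 1 of 6 H1 genes, 7 of 16 H2A, 5 of 16 H2B, 0 of 11 H3 and 5 of 13 H4 genes. The family medians were 0.59 in H1, 0.91 in H2A, 0.71 in H2B, 0.74 in H3 and 0.72 in H4. With DESeq2 7 members were called against 8.44% of all genes, which added Hist1h2bc, Hist1h4i, Hist2h2ac and Hist1h2ah to the 3. In no member did every Arid1a-fl tumour lie above every control tumour.

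The 3 called members are an H2A, an H2B and an H4 gene. Hist2h2aa2 (chr3:96239749-96240276, minus strand) had 33.7, 1.85, 1.998, 0.606, 1.85, 5.90, 2.01 and 22.9 CPM in the 8 Arid1a-fl tumours and 0.613, 1.33 and 2.47 CPM in the lowest, median and highest control tumour. Replicates 1, 6 and 8 lay above all controls and the other 5 below the highest control (log2 fold change 2.62, SE 0.56, adjusted p 0.0151). Hist1h4n (chr13:21831767-21832196, minus strand) had 78.3, 22.8, 31.7, 27.3, 15.2, 7.33, 9.78 and 88.2 CPM against 4.45, 8.08 and 26.3 CPM in the controls (log2 fold change 1.69, SE 0.41, adjusted p 0.0276). Replicates 1, 3, 4 and 8 lay above all controls. Hist1h2br (chr13:21833743-21837530, plus strand) was near the limit of detection, with 0.878, 1.69, 0.228, 2.02, 0.702, 0.249, 0.134 and 3.40 CPM against 0 to 0.758 CPM in the controls (log2 fold change 2.17, SE 0.56, adjusted p 0.0364). The called differences rest on the same tumours, since leaving out Arid1a-fl replicate 1 or replicate 8 left 0 members called, and leaving out replicate 6 gave 7. The call of Hist1h2br was also lost without Arid1a-fl replicate 2, 4 or 5 or control replicate 12.

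These 3 are also among the members with most windows in another gene. Of their 150-base windows, 0% in Hist2h2aa2, 22.8% in Hist1h4n and 15.8% in Hist1h2br were in no other gene. Hist2h2aa2 shares its windows with Hist2h2aa1 and Gm20634. Of the 18 tested members with most windows in another gene 3 were called, and of the 44 with at least 50% of windows of their own 0 were, although 10 of the 44 passed at an unadjusted p. Their medians were 0.96 and 0.72. For H4 the near-identical copies can be summed. Hist1h4m and Hist1h4n together stood at 14.1 ± 8.45 CPM in control (4.51 to 31.1, n = 13) and 40.3 ± 33.7 CPM in Arid1a-fl tumours (9.82 to 93.9, n = 8), with replicates 1 and 8 at 93.9 and 91.5 CPM. The difference therefore was present in the sum of both copies, in the same tumours. Whether the placing of reads between copies has a part in these calls was not tested.

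**Figure D3:**
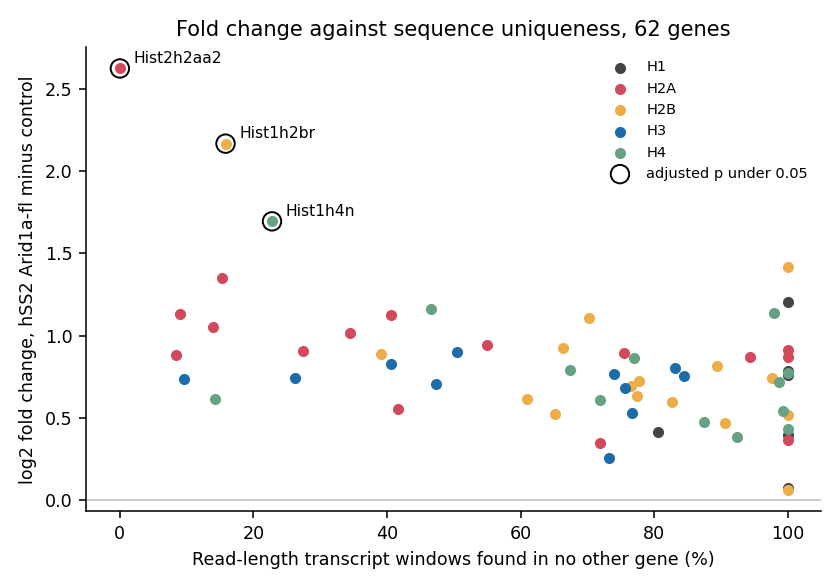
Log2 fold change of each tested histone gene in hSS2 Arid1a-fl against control, plotted against the percent of its 150-base windows found in no other gene, with called members marked. The 3 called members lie at 0% to 22.8%, and the 44 members at 50% or more have a median of 0.72 with 0 called.

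In hSS2 Arid1b-fl tumours 0 of 62 members were called, against 0.0548% of all genes by edgeR, and 0 against 0.0747% by DESeq2. At an unadjusted p 1 member was higher (2.74% of all genes) and 1 lower (3.48% of all genes). The median log2 fold change was 0.16, from -2.33 in Hist1h4m (adjusted p 0.577) to 1.58 in Hist2h2aa2 (adjusted p 0.647), and 50 of 62 members were above 0. Leaving out single tumours moved that median widely, to 0.000075 with 31 of 62 above 0 without Arid1b-fl replicate 6, 0.013 with 34 without replicate 5, 0.018 with 36 without replicate 8, and 0.33 with 56 without control replicate 2. Hist1h4m had 0.389, 0.313, 0.295, 0.139, 0.982, 0.524, 1.87 and 0.747 CPM in the 8 tumours, beside 0 to 9.09 CPM in controls. Its near-identical copy Hist1h4n stood at 13.8 ± 6.81 CPM against 10.7 ± 6.94 CPM, and the 2 together at 14.5 ± 6.71 CPM against 14.1 ± 8.45 CPM, so the difference of Hist1h4m was not present in the sum of both copies. Hist2h2aa2 was highest in Arid1b-fl replicates 5, 7 and 8, at 9.33, 7.27 and 11.5 CPM, and at most 1.63 CPM in the other 5.

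The direct comparisons between floxed groups of hSS2 ask whether the subunits differ. They use tumours of different mouse number ranges. Arid1a-fl minus Pbrm1-fl called the 3 members named above, all higher in Arid1a-fl (12.3% of all genes were called). These were Hist2h2aa2 (log2 difference 2.29, adjusted p 0.0171), Hist1h4n (1.77, adjusted p 0.0127) and Hist1h2br (1.90, adjusted p 0.0487). The call of Hist2h2aa2 was lost without Arid1a-fl replicate 1 or 8, and that of Hist1h2br without Arid1a-fl replicate 1, 2, 4, 5 or 8 or any of Pbrm1-fl replicates 1 to 6. The median over the 62 members was 0.47, from -0.12 in Hist2h2be to 2.29, and 59 were above 0. Without Arid1a-fl replicate 1 the median was 0.040 with 32 of 62 above 0, and without Pbrm1-fl replicate 8 it was 0.82 with 61. With DESeq2 5 were called, against 16.1% of all genes. When each group was set against controls from its own mouse number range, 0 members were called, while the median was 1.23 with 61 of 62 above 0. Arid1a-fl minus Arid1b-fl called 0 members (0.0996% of all genes), with 62 of 62 above 0, a median of 0.61 and 6 higher at an unadjusted p (4.73% of all genes). Without Arid1a-fl replicate 1 the median was 0.19 with 49 of 62 above 0 and 4 at an unadjusted p. DESeq2 called 1 member, Hist1h4m, against 1.07% of all genes, and that gene had the largest log2 difference by edgeR, 2.95 (adjusted p 0.145). Pbrm1-fl minus Arid1b-fl called 1 member, against 4.37% of all genes, and this was again Hist1h4m, at 4.81 ± 4.76 CPM against 0.658 ± 0.560 CPM (log2 difference 2.86, SE 0.82, adjusted p 0.0371). It was also the 1 member called by DESeq2 (7.1% of all genes). The call was lost when any 1 of 3 Pbrm1-fl tumours (replicates 3, 7 and 8) or of 6 Arid1b-fl tumours (replicates 1, 2, 3, 4, 6 and 8) was left out. In the same comparison all 5 tested of 7 erythroid markers were called lower in Pbrm1-fl, with summed levels of 55.8 to 559 CPM in Pbrm1-fl and 25.6 to 47475 CPM in Arid1b-fl tumours. The highest of these was Arid1b-fl replicate 5. The part of blood content in the call of Hist1h4m was not tested. The sum of Hist1h4m and Hist1h4n was 14.96 ± 8.15 CPM in Pbrm1-fl and 14.5 ± 6.71 CPM in Arid1b-fl tumours.

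In hSS1 the direction was the other way. All 61 tested members had a log2 fold change below 0 in Pbrm1-fl tumours, from -3.18 in Hist3h2ba (adjusted p 0.118) to -0.28 in Hist1h2be, with a median of -0.97. By edgeR 0 were called, against 0.00562% of all genes, and 47 were lower at an unadjusted p, against 9.34% of all genes. DESeq2 called 28, all lower, against 6.66% of all genes, so the count of called members depends on the tool. Since members varied together over tumours, these counts are not numbers of separate observations. The unadjusted count was 6 of 6 H1 genes, 10 of 16 H2A, 12 of 15 H2B, 8 of 11 H3 and 11 of 13 H4 genes, and the family medians were -1.05, -1.04, -0.96, -0.90 and -0.85 in that order. In 9 of 61 members every Pbrm1-fl tumour lay below every control tumour, against 3.73% of all genes. These were Hist1h1b, Hist1h2ac, Hist1h2bg, Hist1h2bh, Hist1h2bp, Hist1h3a, Hist1h3e, Hist1h4c and Hist3h2ba. Of the members with most windows in another gene 13 of 17 were lower at an unadjusted p, and of those with at least 50% of windows of their own 34 of 44.

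Of these, Hist1h4c, an H4 gene, had the smallest adjusted p, with 60.7, 44.1, 72.8, 76.9 and 83.6 CPM in control and 33.4, 33.9, 41.7 and 33.2 CPM in Pbrm1-fl tumours (log2 fold change -0.92, SE 0.19, adjusted p 0.117). Hist1h2ac, an H2A gene, stood at 15.98 ± 4.39 CPM and 6.42 ± 1.56 CPM (log2 fold change -1.31, adjusted p 0.118). Neither overlapped between the groups. Hist3h2ba, an H2B gene of the Hist3 cluster on chromosome 11 (58948920 to 58949533, plus strand) with all windows in no other gene, had 37.7, 28.2, 65.1, 11.5 and 10.9 CPM in control and 1.89, 1.89, 5.92 and 3.76 CPM in Pbrm1-fl tumours. In hSS2 it stood at 3.94 ± 2.84 CPM in control, 5.53 ± 4.34 CPM in Pbrm1-fl, 10.8 ± 18.6 CPM in Arid1a-fl, where replicate 1 had 56.004 CPM, and 7.11 ± 7.47 CPM in Arid1b-fl tumours. The 4 hSS1 Pbrm1-fl tumours lay within the range of the hSS2 control tumours (1.28 to 11.1 CPM), and 4 of the 5 hSS1 control tumours above it.

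**Figure D4:**
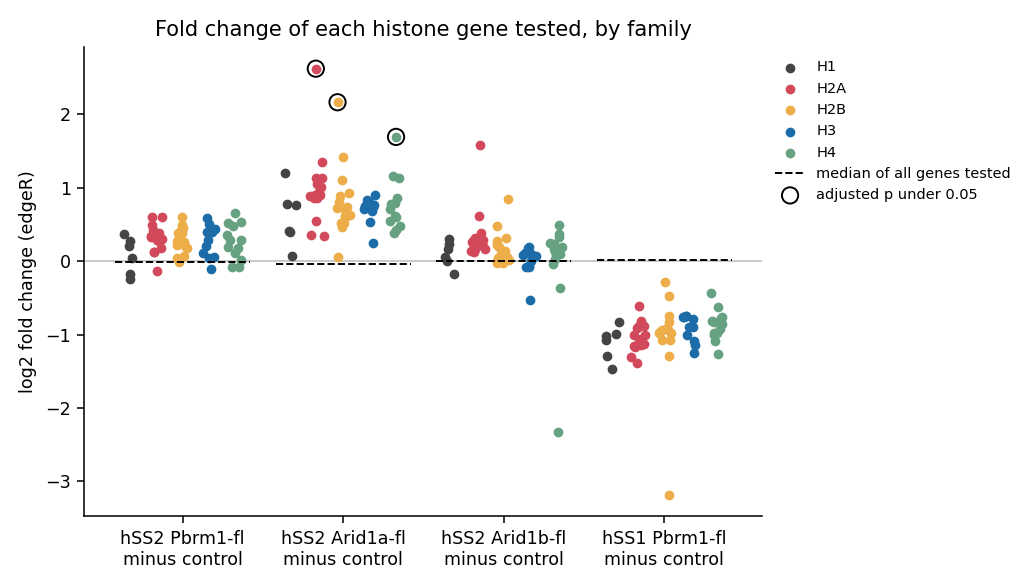
Log2 fold change of each tested histone gene against control in the 4 floxed groups, 1 point per gene, coloured by family, with called members ringed and the median of all genes as a dashed line. All members lie above 0 in hSS2 Arid1a-fl (median 0.76) and below 0 in hSS1 Pbrm1-fl (median -0.97), and 3 members are called, each in Arid1a-fl.

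The difference between the backgrounds was tested directly by an interaction term (effect of floxed Pbrm1 in hSS1, less its effect in hSS2), over 63 members. All 63 were below 0, with a median of -1.24, from -3.68 in Hist3h2ba (adjusted p 0.0588) to -0.68 in Hist1h2be. By edgeR 0 were called (2.86% of all genes), and 11 were lower at an unadjusted p (8.74% of all genes). DESeq2 called 1 member, Hist3h2ba, against 5.5% of all genes. The difference between backgrounds thus passed the edgeR threshold for no member. Leaving out hSS2 control replicate 2, hSS2 Pbrm1-fl replicate 1, hSS1 control replicate 4 or 5, or hSS1 Pbrm1-fl replicate 3 gave 1 called member each. The unadjusted count was 18 without hSS2 control replicate 2, 19 without hSS2 Pbrm1-fl replicate 1 and 18 without hSS1 control replicate 2.

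Mki67, which encodes the proliferation marker Ki-67 and is absent from resting cells, was set beside the histone genes. It stood at 49.3, 172 and 743 CPM in the lowest, median and highest hSS2 control tumour, at 100, 235 and 698 CPM in Pbrm1-fl, at 132, 387 and 824 CPM in Arid1a-fl and at 109, 246 and 579 CPM in Arid1b-fl tumours. In hSS1 it stood at 725 ± 281 CPM in control (n = 5) and 408 ± 134 CPM in Pbrm1-fl tumours (n = 4). Its log2 fold changes were -0.02 (SE 0.43, adjusted p 0.989), 0.45 (SE 0.43, adjusted p 0.539), -0.15 (SE 0.44, adjusted p 0.992) and, in hSS1, -0.82 (SE 0.36, adjusted p 0.289). None was called. Between floxed groups they were 0.47 for Arid1a-fl minus Pbrm1-fl (adjusted p 0.581), 0.60 for Arid1a-fl minus Arid1b-fl (adjusted p 0.614) and 0.13 for Pbrm1-fl minus Arid1b-fl (adjusted p 0.923), and the hSS1 minus hSS2 effect was -0.82 (adjusted p 0.575).

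Across tumours the summed histone level and Mki67 varied together. On the log2 scale Pearson r was 0.926 and Spearman rho 0.928 over all 46 tumours, and r was 0.918 without the 2 tumours farthest from the median of Mki67. Within groups r was 0.939 in hSS2 control (n = 13), 0.946 in Pbrm1-fl, 0.898 in Arid1a-fl and 0.826 in Arid1b-fl tumours (n = 8 each). Without the 2 farthest tumours these were 0.911, 0.771, 0.815 and 0.62545. The hSS1 groups are too small for a value of their own. All points share the scaling of their library, and the values are a description. The list of muscle markers ran the other way, with r of -0.607 over the 46 tumours, and that of macrophages had -0.335. The mean of the muscle list was 6.29 ± 4.04 in hSS2 control, 3.96 ± 4.81 in Pbrm1-fl, 4.23 ± 4.63 in Arid1a-fl and 5.07 ± 5.34 in Arid1b-fl tumours, and 1.27 ± 3.21 and -0.20 ± 1.73 in hSS1 control and Pbrm1-fl tumours (log2 CPM, SD). The part of muscle or macrophage content in the histone level was not tested.

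**Figure D5:**
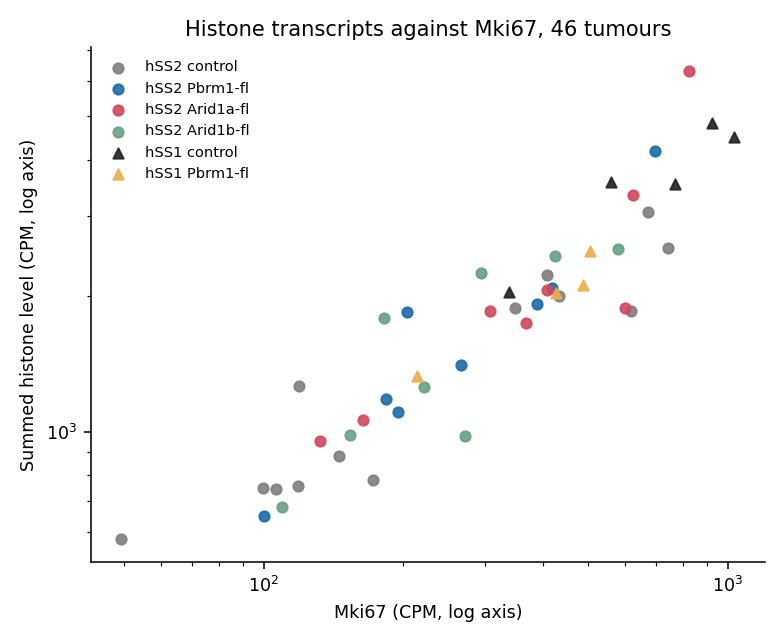
Summed level of the 67 histone genes against Mki67, both in CPM on logarithmic axes, 1 point per tumour, coloured by group. The 46 tumours lie along 1 band with Pearson r of 0.926 on the log2 scale, with the hSS1 control tumours near its upper end.

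Divided by Mki67, the groups came close together. The summed histone level per unit of Mki67 was 6.19 ± 2.58 (SD) in hSS2 control, 6.11 ± 1.33 in Pbrm1-fl, 5.71 ± 1.46 in Arid1a-fl and 6.20 ± 1.92 in Arid1b-fl tumours, and 5.32 ± 0.891 in hSS1 control and 5.08 ± 0.814 in hSS1 Pbrm1-fl tumours. Group means thus ranged from 5.08 to 6.20 where the summed level ranged from 1487 to 3698 CPM. The ratio was not free of Mki67. Of the hSS2 control tumours, replicate 12 with the lowest Mki67 (49.3 CPM) had a ratio of 11.7. Replicate 6 with the highest Mki67 (743 CPM) had 3.44. The part of this in the closeness of the group means was not tested. Divided instead by the sum of 15 S-phase genes, which make DNA precursors and the replication machinery, the hSS1 groups did not overlap. The ratio was 3.01 ± 0.117 in the 5 control tumours (2.92 to 3.20) and 2.14 ± 0.513 in the 4 Pbrm1-fl tumours (1.72 to 2.85). In hSS2 it was 2.58 ± 0.403, 2.63 ± 0.649, 2.41 ± 0.735 and 2.47 ± 0.468 in the same order of groups, which overlapped. The hSS1 result therefore depends on which proliferation measure stands below the line.

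Single members differed in how closely they followed Mki67. Over the 46 tumours r had a median of 0.883 among the 62 members tested in hSS2, with Hist1h1b highest at 0.953. The 9 lowest were Hist3h2a at -0.016, Hist2h3c2 at 0.333, Hist2h2be at 0.385, Hist2h2aa2 at 0.403, Hist3h2ba at 0.592, Hist1h4m at 0.593, Hist4h4 at 0.598, Hist1h2bc at 0.620 and Hist1h1c at 0.657. The 3 members known to make polyadenylated transcripts as well, Hist1h1c, Hist1h2bc and Hist2h2be, are all among them, and so are all 3 members of the Hist3 and Hist4 clusters. The cut at 9 was set after the values were seen and ends at Hist1h1c. The next members, Hist1h1t at 0.658 and Hist2h2ab at 0.670, lie close to it. Hist3h2a, whose exons overlap those of Trim17, had 71.96% of windows in no other gene and stood at 3.38 ± 1.10 CPM in hSS2 control tumours. The 42 tested members in which the stem-loop was found had a median r of 0.874, and the 7 tested members searched without a match had 0.877.

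The 3 members with polyadenylated transcripts were called in no comparison by edgeR, and DESeq2 called Hist1h2bc in Arid1a-fl against control. Their log2 fold changes were 0.18 to 0.46 in hSS2 Pbrm1-fl, 0.06 to 0.60 in Arid1a-fl and -0.96 to -0.48 in hSS1 Pbrm1-fl. Hist2h2be stood at 12.4 ± 6.08 CPM in hSS2 control and 12.9 ± 1.86 CPM in Arid1a-fl tumours, the smallest fold change of all members there.

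Genes that read and process histone transcripts were examined as a list of 20, of which Npat, Casp8ap2 and Slbp were followed in each comparison. Slbp stood at 27.4 ± 7.95 CPM in hSS2 control and 36.7 ± 10.3 CPM in Arid1a-fl tumours (log2 fold change 0.41, adjusted p 0.152), and its log2 fold change was 0.17 in Pbrm1-fl (adjusted p 0.601) and 0.00 in hSS1 Pbrm1-fl (adjusted p 0.998). In hSS1, Slbp was at 35.4 ± 9.58 CPM in control and 35.3 ± 3.69 CPM in floxed tumours, beside a summed histone level of 0.540 times control. Npat stood at 65.3 ± 18.99 CPM in hSS2 control, 51.5 ± 6.93 in Pbrm1-fl and 80.6 ± 11.1 in Arid1a-fl tumours. Against control neither was called (log2 fold change -0.34, adjusted p 0.0965, and 0.30, adjusted p 0.146), but Arid1a-fl exceeded Pbrm1-fl by 0.63 (SE 0.14, adjusted p 0.00264). Casp8ap2, which works with Npat at histone loci, gave the same pattern, at 0.45 between the floxed groups (adjusted p 0.0112). Both genes were called there in all 16 fits that left out 1 tumour, and in 3 of the 4 other alternatives. With each group set against controls from its own mouse number range the Npat difference was -0.028.

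Of the 20 genes, 4 were called in Arid1a-fl against control, all higher, against 3.17% of all genes, with a list median of 0.31. They were the cleavage factor subunit Cpsf2 (0.51, adjusted p 0.0156), the kinase Cdk2 (0.59, adjusted p 0.0211), its partner cyclin E1, Ccne1 (1.24, adjusted p 0.0484), and the histone mRNA exonuclease Eri1 (0.53, adjusted p 0.0486). Without Arid1a-fl replicate 8 Cpsf2 (adjusted p 0.0559) and Cdk2 (adjusted p 0.0873) were not called. Ccne1 and Eri1 lost their calls when 1 tumour was left out in 15 of 21 cases, namely control replicates 1, 4, 5, 7, 8, 9, 11, 12 and 13 and Arid1a-fl replicates 1, 2, 4, 5, 7 and 8 (highest adjusted p 0.178 and 0.150). Cdk2 was also higher in Arid1a-fl than in Pbrm1-fl (0.59, adjusted p 0.00874), where 3 of the 4 other alternatives called it. In hSS2 Pbrm1-fl, in Arid1b-fl and in hSS1 Pbrm1-fl 0 of 20 were called (7.35%, 0.0548% and 0.00562% of all genes), with medians of 0.12, 0.06 and -0.09.

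Histone chaperones carry new histones to DNA. Of 14 tested, 3 were called in Arid1a-fl, all higher, against 3.17% of all genes, with a list median of 0.46. They were the H1 and H3-H4 chaperone Nasp (0.80, adjusted p 0.0379), Rbbp4 of the CAF-1 complex (0.45, adjusted p 0.0405) and the H4 acetyltransferase Hat1 (0.54, adjusted p 0.0487). The Hat1 call was lost in the same 15 cases as those of Ccne1 and Eri1 (highest adjusted p 0.150). That of Nasp was lost without control replicate 5, 7, 12 or 13 or Arid1a-fl replicate 1, 2, 5, 7 or 8 (highest 0.119). That of Rbbp4 was lost without control replicate 4, 5, 7, 9 or 12 or Arid1a-fl replicate 1, 2, 5, 7 or 8 (highest 0.119). Of the 4 other alternatives, 2 called Rbbp4, and 3 called Nasp and Hat1. Against Pbrm1-fl, where 12.3% of all genes were called, the called ones were Nap1l1 (0.79, adjusted p 0.00448) and Asf1a (0.39, adjusted p 0.0387). Both were higher in Arid1a-fl. Asf1a was called in 7 of 16 fits that left out 1 tumour. Its call was lost without Pbrm1-fl replicate 1, 3, 4, 5, 6 or 7 or Arid1a-fl replicate 1, 2 or 7. Of the 4 other alternatives, 2 called Asf1a and 3 called Nap1l1. In hSS1 Pbrm1-fl 0 were called, and all 14 had a log2 fold change below 0 with a median of -0.22. Of 15 S-phase genes Mcm4, a subunit of the replicative helicase, was called in Arid1a-fl (0.91, adjusted p 0.0272) and against Pbrm1-fl (0.84, adjusted p 0.0225). Without Arid1a-fl replicate 8 neither was called (adjusted p 0.106 and 0.0770), and against control the call was also lost without replicate 1, 2 or 7. Against Pbrm1-fl, 3 of the 4 other alternatives called Mcm4. All 15 were above 0 in Arid1a-fl, with a median of 0.76 beside 0.76 for the histone members, and 13 were higher at an unadjusted p, against 10.2% of all genes. Genes of a list measured in the same tumours are not separate observations. The sum of the list was 1696 and 1474 CPM in Arid1a-fl replicates 1 and 8, and 392 to 978 CPM in the rest of that group. In hSS1 Pbrm1-fl their median was -0.33 beside -0.97 for the histone members.

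Another list held 11 histone variants, such as H2afz and H3f3a, taken as made outside S phase, a label that need not hold for every gene. The 11 were called in no comparison with control. Of all genes 7.35% were called in hSS2 Pbrm1-fl, 3.17% in Arid1a-fl, 0.0548% in Arid1b-fl and 0.00562% in hSS1 Pbrm1-fl. Their medians were 0.15 in Pbrm1-fl, 0.44 in Arid1a-fl, 0.11 in Arid1b-fl and -0.67 in hSS1 Pbrm1-fl, where all 11 were below 0 and 8 were lower at an unadjusted p, against 9.34% of all genes. The linker variant H1fx was the 1 variant called in the hSS1 minus hSS2 effect of Pbrm1-fl (-2.17, SE 0.50, adjusted p 0.0149). There 2.86% of all genes were called. H1fx was called in all 30 fits that left out 1 tumour, and in 3 of the 4 other alternatives. It stood at 64.7 to 102 CPM in hSS1 control and 23.4 to 38.3 CPM in hSS1 Pbrm1-fl tumours, which did not overlap, and at 26.4 ± 10.9 CPM in hSS2 control and 44.1 ± 24.3 CPM in hSS2 Pbrm1-fl tumours.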

How the data were processed

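Whole-tumour total RNA was depleted of ribosomal RNA, made into directional libraries and sequenced as paired reads by the authors. The authors deposited raw read counts per Ensembl gene, 1 table for hSS2 and 1 for hSS1, after alignment to mm10 with STAR 2.7.11 and counting with featureCounts 1.6.3 (submitters' processing notes). Which annotation release and strand setting were used, and how reads that fit several genes were treated, is not given in the sources used here. Entries were whole numbers. Groups were taken from the sample titles, and replicates, each a separate mouse, are numbered within groups. Libraries of the same group all differed by more than counting noise; those of different groups were not compared this way.

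Symbols came from GENCODE M21. Counts were filtered with filterByExpr on group, TMM-scaled and tested with the robust quasi-likelihood test of edgeR 4.0.16 in R 4.3.3, two-sided, with Benjamini-Hochberg adjustment over all genes. The 37 hSS2 and the 9 hSS1 libraries had a fit each, and the interaction used all 46. The steps were tested on simulated data. CPM per kb used annotated union exon length, which for some members ends at the stop codon. List scores used log2 CPM with a prior count of 2.

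The members, lists and naming rule were chosen with earlier results of these data known. Named were, in each comparison, the called members and those with the highest and lowest fold change, in each family the 2 highest members per kb, Mki67, the targeted genes, Slbp, Npat, Casp8ap2 and up to 4 called genes per list. Hist1h4c, Hist1h1b, Hist1h2ac, Hist1h1t, Hist1h4d, the members with low correlation and H1fx levels were picked after their values were seen. Alternatives were DESeq2 1.42.0, RLE size factors, no filter, controls from the matching mouse number range only, leaving out each tumour, and, chosen after seeing the data, only members with at least 50% of 150-base windows in no other gene.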

Additional observations from a re-analysis of the deposited data

Results flagged for a closer look

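Dixon's test at the 95% level was applied to 17 quantities in the groups of 4 to 10 tumours, 85 tests in all. Of these, 23 found a tumour far from the rest of its group, each time the highest. Chance gives about 1 in 20 for separate values with a normal spread. The quantities were CPM or ratios on a linear scale and include the sum and its own members, so that rate is no measure of an excess. Most of the 23 were the same tumours.

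In hSS2 Pbrm1-fl, replicate 8 stood apart in the summed histone level (4178 CPM, with the next tumour at 2080), and in Hist1h1a (117 against 53.7 CPM), Hist1h2ak (186 against 76.0), Hist1h2an (81.1 against 34.3), Hist1h2bn (88.8 against 42.7), Hist1h3c (138 against 48.5), Hist1h3f (229 against 94.4), Hist1h4f (120.4 against 59.8) and Hist1h4m (15.8 against 5.48). Its level per unit of Mki67 was not flagged, and there replicate 7 stood apart instead, at 9.06 with the next at 6.47.

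In hSS2 Arid1a-fl, replicate 1 stood apart in the summed histone level (6306 CPM, with the next tumour at 3353), and in Hist1h1a (255 against 103 CPM), Hist1h2an (114 against 47.9), Hist1h2bn (174 against 46.2), Hist1h3c (169.8 against 80.7), Hist1h3f (323 against 162), Hist1h4h (247 against 124), Hist1h4m (15.6 against 5.55) and Hist2h2bb (180.4 against 77.5).

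In hSS2 Arid1b-fl, replicate 5 stood apart in Hist1h1c (307 CPM, with the next at 162) and in Hist1h2br (0.771 against 0.349 CPM). The summed level of erythroid markers in that tumour was 47475 CPM. The part of blood content in these values was not tested.

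Hist2h2aa2 was far higher in 1 tumour of each hSS1 group, at 35.3 CPM in control replicate 4 (next 3.78) and 11.4 CPM in Pbrm1-fl replicate 1 (next 2.82).

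The Pbrm1-fl effect on H1fx differed between hSS1 and hSS2 by -2.17 on the log2 scale (edgeR quasi-likelihood test of the interaction, adjusted p 0.0149). Of the histone members and the lists examined, it was the 1 gene called in that comparison. The call held in all 30 fits that left out 1 tumour, and in 3 of the 4 other alternatives.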

How the results depend on the processing

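Counts of called members moved under these alternatives. DESeq2 gave 7 for Arid1a-fl minus control, 5 for Arid1a-fl minus Pbrm1-fl, 1 for Arid1a-fl minus Arid1b-fl, 28 for hSS1 Pbrm1-fl and 1 for the hSS1 minus hSS2 effect, where edgeR gave 3, 3, 0, 0 and 0. RLE size factors gave 5 for Arid1a-fl minus Pbrm1-fl, and no filter gave 2, 2 and 0 for Arid1a-fl minus control, Arid1a-fl minus Pbrm1-fl and Pbrm1-fl minus Arid1b-fl, where the filter gave 3, 3 and 1. With controls only from the matching mouse number range the count was 5 for Arid1a-fl minus control and 0 for both Arid1a-fl minus Pbrm1-fl and Pbrm1-fl minus Arid1b-fl. With only members of at least 50% of windows in no other gene, chosen after seeing the data, it was 0 in these 3 comparisons, since the called members were not among them. Leaving out 1 tumour gave 0 to 7 for Arid1a-fl minus control, 1 to 5 for Arid1a-fl minus Pbrm1-fl, 0 to 1 for Pbrm1-fl minus Arid1b-fl and 0 to 1 for the hSS1 minus hSS2 effect, and 0 in the other 4 comparisons.

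The summed log2 ratio to control kept its sign in the 5 alternatives other than leaving out 1 tumour (0.016 to 0.35 in Pbrm1-fl, 0.65 to 0.93 in Arid1a-fl, 0.05 to 0.26 in Arid1b-fl, -1.11 to -0.88 in hSS1). Leaving out 1 tumour gave -0.031 to 0.41, 0.31 to 0.82, -0.0036 to 0.25 and -1.04 to -0.74. In Arid1a-fl minus Pbrm1-fl, Asf1a (-0.088) and Npat (-0.028) reversed with controls only from the matching mouse number range; the cause was not tested. Of the called members against control, Hist2h2aa2 was called in 23 of 25 alternatives (adjusted p 0.000406 to 0.0692), Hist1h4n in 23 of 25 (0.00345 to 0.110) and Hist1h2br in 16 of 24 (0.00888 to 0.125).

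No paired analysis was possible because the labels give mouse numbers, with no replicate number shared between groups and no litter. A block for mouse number range within each background has the same terms as the fit with controls from the matching range, since each floxed group lies in 1 range. Depth limits the members under 1 CPM, such as Hist1h2br, and the unstated treatment of reads shared between copies limits the 21 members with most windows in another gene. With 4 against 5 tumours in hSS1, edgeR called 1 gene of all tested.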
